A study of Mus musculus with 8 samples.

Results

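The angiopoietin-Tie system was followed here in lung endothelial cells (ECs) through 7 genes, taken by symbol from the 54532 genes listed for the series: the ligands Angpt1 and Angpt2, the receptors Tek (also called Tie2) and Tie1, the extracellular Tie1 ligand Svep1, the receptor phosphatase Ptprb (VE-PTP), and Esm1, a gene of endothelial tip cells. From birth on, wild-type (WT) pups had breathed room air with 21% O2 (normoxia) or 80% O2 (hyperoxia), and their lung ECs were collected at postnatal day 14. Per the study's methods the mice were C57BL/6J, and the lung suspensions were cleared of cells that bind CD45 beads before the ECs were picked up on CD31 beads. Each group held 4 libraries of bulk RNA-seq with 16098086 to 18300730 counted reads each, and all 7 genes were among the 15564 that passed the filter on low counts. The labels do not say whether the libraries of a group came from separate pups, so the p-values measure the spread between these samples, which may be technical.

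Angiopoietins are secreted ligands of Tek, a receptor tyrosine kinase that ECs carry. Angpt1, made mainly by pericytes, fibroblasts and other mesenchymal cells, activates Tek and stabilises the vessel wall, whereas Angpt2 is stored and released by ECs themselves and can either block or activate Tek depending on the setting. Tie1 binds no angiopoietin directly and modulates Tek signalling, Ptprb removes phosphate from Tek, and active Tek keeps the transcription factor Foxo1 out of the nucleus through Akt. In the lung the system is known for its part in keeping capillaries tight.

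In hyperoxia, the receptors Tek and Tie1, the phosphatase Ptprb and Esm1 fell, and the ligands Angpt2, Angpt1 and Svep1 rose. Tek fell to 0.577 of its normoxic level, Esm1 to 0.5998, Ptprb to 0.674 and Tie1 to 0.883. Angpt2 rose 1.46-fold. Angpt1 and Svep1, each scarce in the isolate, rose too, but their calls depended on single libraries. These were 7 of 7 genes called in edgeR's quasi-likelihood test at an adjusted p under 0.05 (Benjamini-Hochberg over all genes tested), 3 higher and 4 lower. The background was high: 35.6% of all tested genes were called, 18.5% higher and 17.1% lower. Only Svep1 also changed by 1 or more on the log2 scale, a mark that 6.98% of the tested genes reached. The groups did not overlap for 5 of the 7 genes (Angpt2, Tek, Tie1, Ptprb, Esm1), against 35.4% of all tested genes. The median log2 fold change of the 7 genes was -0.18 against -0.0040 for all genes tested, and the median absolute value 0.74 against 0.23. In bulk samples, fewer cells of a type and less RNA per cell cannot be told apart.

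**Figure D1:**
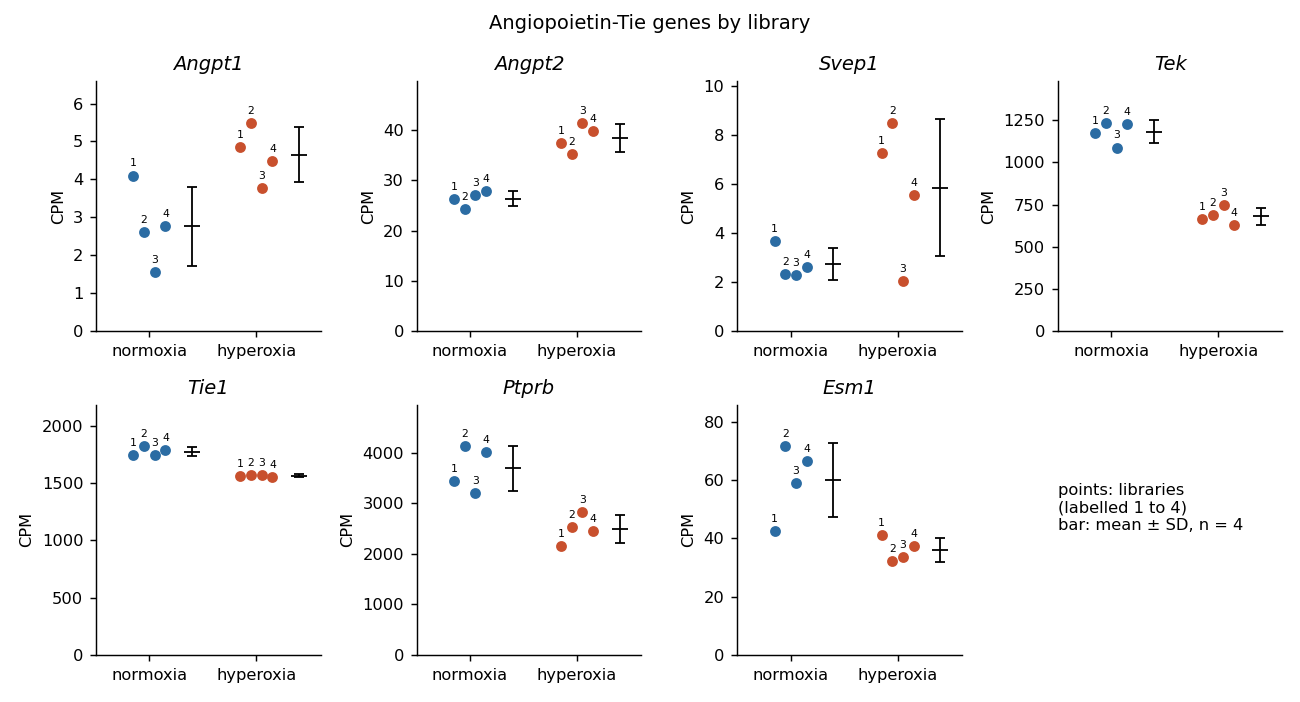
CPM (reads of a gene scaled to a common library size, linear axes from 0) of the 7 genes, 1 panel a gene, with normoxia and hyperoxia side by side; points are libraries, labelled by replicate number, and the bar is the mean ± SD of the 4. Tek, Tie1, Ptprb and Esm1 sit lower in hyperoxia and Angpt2 higher without overlap, whereas Angpt1 and Svep1 lie below 10 CPM and their groups overlap.

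**Figure D2:**
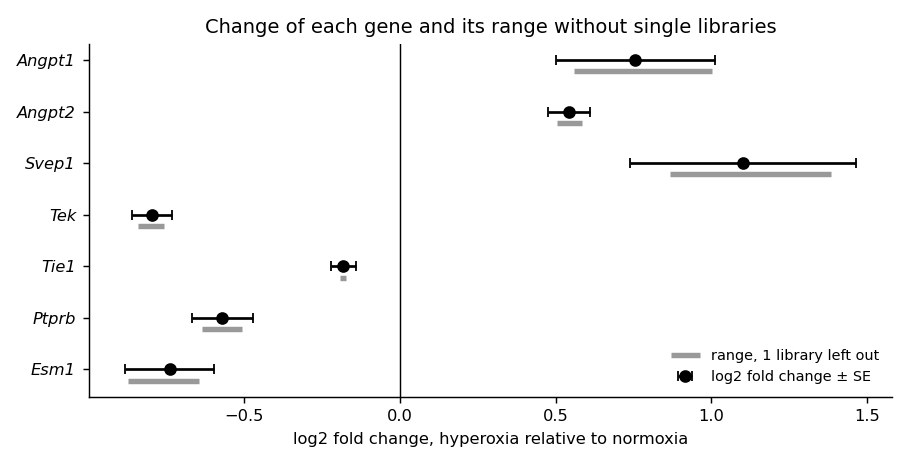
Log2 fold change (hyperoxia minus normoxia) of the 7 genes; black bars are the standard error of the edgeR fit, and the grey bar below is the range when 1 library is left out. All ranges stay on 1 side of 0. Svep1, at 1.10, has the widest error (0.362), and Tie1, at -0.18, the narrowest (0.0391).

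Tek, the angiopoietin receptor (ENSMUSG00000006386, GRCm38 chr4:94739289-94874976, plus strand, 23 exon blocks), was read in CPM, the reads of a gene scaled to a common normalised library size. Its level was 1173, 1236, 1089 and 1230 CPM in normoxia libraries 1 to 4 and 664, 690, 746 and 627 CPM in hyperoxia libraries 1 to 4. The lowest normoxic library thus stood well above the highest hyperoxic one. The mean went from 1182 ± 68.2 to 682 ± 49.8 CPM (SD, n = 4 each), a log2 fold change of -0.79 (SE 0.0630, edgeR adjusted p = 6.35e-06). Of all tested genes, 88.7% had a smaller absolute log2 fold change.

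The promoters of Tek and Esm1, the receptor and the tip cell gene that fell, are shown because their annotated start coincides with the start of the gene in the files. Each run gives the 250 bases before the start on the gene's own strand, from RefSeq on GRCm38.p6, at chr4:94739039-94739288 for Tek and chr13:113209409-113209658 for Esm1, both on the plus strand. Capitals mark matches to the searched motifs.
Tek: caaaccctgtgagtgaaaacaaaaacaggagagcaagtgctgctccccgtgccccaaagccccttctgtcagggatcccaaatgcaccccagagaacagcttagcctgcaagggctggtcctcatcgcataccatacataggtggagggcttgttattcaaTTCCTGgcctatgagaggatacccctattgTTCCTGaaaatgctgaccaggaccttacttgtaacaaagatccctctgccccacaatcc
Esm1: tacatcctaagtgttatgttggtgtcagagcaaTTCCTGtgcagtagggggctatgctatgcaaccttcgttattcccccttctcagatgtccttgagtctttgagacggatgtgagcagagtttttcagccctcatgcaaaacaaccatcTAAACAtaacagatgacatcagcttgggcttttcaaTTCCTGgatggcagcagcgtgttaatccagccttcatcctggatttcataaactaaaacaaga
Both strands were searched for the forkhead motif GTAAACA, the ETS motif CGGAAG and the GATA motif AGATAA, and for the shorter forkhead form TAAACA, which lies within GTAAACA, and the ETS form CAGGAA, both added after the promoters had been read. The Tek promoter held CAGGAA on the reverse strand at 89 to 84 and at 59 to 54 bases before the start. The Esm1 promoter held TAAACA at 99 to 94 bases, and CAGGAA on the reverse strand at 217 to 212 and at 63 to 58 bases before the start. Of 32851 promoters of this length, 3.17% held GTAAACA, 13.6% CGGAAG, 9.99% AGATAA, 12.0% TAAACA and 25.7% CAGGAA. The table held promoters for 4 of the 7 genes, but the windows of Tie1 and Svep1 lie partly or wholly inside the gene as the files give it, so their matches are not given. A match describes letters in this window only.

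Tie1, the co-receptor (ENSMUSG00000033191, chr4:118471191-118490061, minus strand, 22 exon blocks), changed little and with little scatter. It stood at 1742, 1821, 1746 and 1792 CPM in normoxia and at 1566, 1574, 1574 and 1553 CPM in hyperoxia. All hyperoxic libraries lay within a narrow band below every normoxic one, with a coefficient of variation of 0.640% against 2.13% in normoxia. The mean fell from 1775 ± 37.8 to 1567 ± 10.03 CPM (SD, n = 4 each), a log2 fold change of -0.18 (SE 0.0391, edgeR adjusted p = 0.00451). This was a small change among all genes, since 41.5% of those tested had a smaller absolute log2 fold change.

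Ptprb, the phosphatase that acts on Tek (ENSMUSG00000020154, chr10:116275523-116389535, plus strand, 35 exon blocks), was the most abundant of the 7 genes by CPM. Normoxia libraries had 3433, 4123, 3195 and 4014 CPM and hyperoxia libraries 2154, 2523, 2824 and 2452 CPM. The groups did not overlap, but libraries scattered more than for Tie1 in both groups. The mean fell from 3691 ± 449 to 2488 ± 275 CPM (SD, n = 4 each), a log2 fold change of -0.57 (SE 0.0975, edgeR adjusted p = 0.00113).

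Esm1 encodes endocan, a proteoglycan that ECs secrete and that marks tip cells at the front of growing vessels. This gene (ENSMUSG00000042379, chr13:113209659-113218098, plus strand, 3 exon blocks) had 42.6, 71.5, 59.1 and 66.6 CPM in normoxia and 41.0, 32.1, 33.5 and 37.4 CPM in hyperoxia. Normoxia 1 was the lowest of its group and only just above hyperoxia 1, the highest of the other group. The mean went from 59.96 ± 12.7 to 36.0 ± 4.03 CPM (SD, n = 4 each), a log2 fold change of -0.74 (SE 0.143, edgeR adjusted p = 0.00234).

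Angpt2, the ligand that ECs make, moved the other way. This gene (ENSMUSG00000031465, chr8:18690263-18741562, minus strand, 10 exon blocks) had 26.3, 24.4, 27.0 and 27.8 CPM in normoxia and 37.3, 35.2, 41.4 and 39.8 CPM in hyperoxia. The groups did not overlap and were tight in both conditions. The mean rose from 26.4 ± 1.49 to 38.4 ± 2.75 CPM (SD, n = 4 each), a log2 fold change of 0.54 (SE 0.0683, edgeR adjusted p = 0.000152).

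Angpt1, the activating ligand, was scarce in this isolate. The gene (ENSMUSG00000022309, chr15:42424723-42676977, minus strand, 10 exon blocks) collected 67, 46, 28 and 50 reads in normoxia and 85, 97, 66 and 81 in hyperoxia, or 4.10, 2.62, 1.57 and 2.76 CPM against 4.85, 5.49, 3.78 and 4.49 CPM. Normoxia 1 exceeded hyperoxia 3, so the groups overlapped. The mean went from 2.76 ± 1.04 to 4.65 ± 0.716 CPM (SD, n = 4 each), a log2 fold change of 0.76 (SE 0.254, edgeR adjusted p = 0.0389). The call did not survive the loss of any of 6 libraries: the adjusted p was 0.0833, 0.0683 and 0.0797 without normoxia 2, 3 and 4, and 0.0728, 0.105 and 0.0660 without hyperoxia 1, 2 and 4. The transcript Gm17473 overlaps 14.2% of its exon bases on the opposite strand.

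Svep1, an extracellular protein that binds Tie1 and that mesenchymal cells make, had few reads and a wide spread between libraries. The gene (ENSMUSG00000028369, chr4:58042442-58206859, minus strand, 47 exon blocks) collected 60, 41, 41 and 47 reads in normoxia and 127, 150, 36 and 100 in hyperoxia, or 3.67, 2.33, 2.29 and 2.60 CPM against 7.25, 8.50, 2.06 and 5.55 CPM. Of the hyperoxic libraries, 3 lay above every normoxic one and hyperoxia 3 lay below all of them. The mean went from 2.72 ± 0.647 to 5.84 ± 2.79 CPM (SD, n = 4 each), a log2 fold change of 1.10 (SE 0.362, edgeR adjusted p = 0.0357). The adjusted p was 0.000736, with a log2 fold change of 1.38, without hyperoxia 3. It missed the threshold at 0.0872, 0.0805 and 0.0808 without normoxia 2, 3 and 4, and at 0.0809, 0.111 and 0.0583 without hyperoxia 1, 2 and 4. The transcript Gm26889 overlaps 13.9% of its exon bases on the opposite strand and had no reads.

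Markers of mural cells and fibroblasts moved along the same libraries. The summed level of the 11 mural and 10 fibroblast markers was 525, 355, 361 and 292 CPM in normoxia libraries 1 to 4 and 734, 878, 408 and 675 CPM in hyperoxia libraries 1 to 4. Normoxia 1 was the highest normoxic library and hyperoxia 3 the lowest hyperoxic one for this sum, as for Angpt1 and Svep1. This order was not particular to mural and fibroblast markers. The same 2 libraries held these places for the alveolar type 2 (321 and 736 CPM), alveolar type 1 (85.8 and 141 CPM) and mesothelial sums (0.735 and 0.859 CPM). With the score of the mural and fibroblast markers as a covariate in edgeR, the log2 fold change was 0.11 for Angpt1 (adjusted p = 0.885) and -0.36 for Svep1 (adjusted p = 0.658). In the same fit Angpt2 (0.69, adjusted p = 0.00292) and Tek (-0.70, adjusted p = 0.00249) were called, while Tie1 (-0.16, adjusted p = 0.205), Ptprb (-0.40, adjusted p = 0.147) and Esm1 (-0.43, adjusted p = 0.317) were not. The standard errors went from 0.254 to 0.343 for Angpt1 and from 0.362 to 0.418 for Svep1. They went from 0.0391 to 0.0732 for Tie1, from 0.0975 to 0.157 for Ptprb and from 0.143 to 0.244 for Esm1. The score ran from -0.78 to 0.022 in normoxia and from -0.13 to 0.87 in hyperoxia. Its groups overlapped only through normoxia 1 and hyperoxia 3, so it goes largely with the oxygen level. Over all genes, 1600 were called with this score in place of 5535. The part mural cells and fibroblasts play in each result was not tested.

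**Figure D3:**
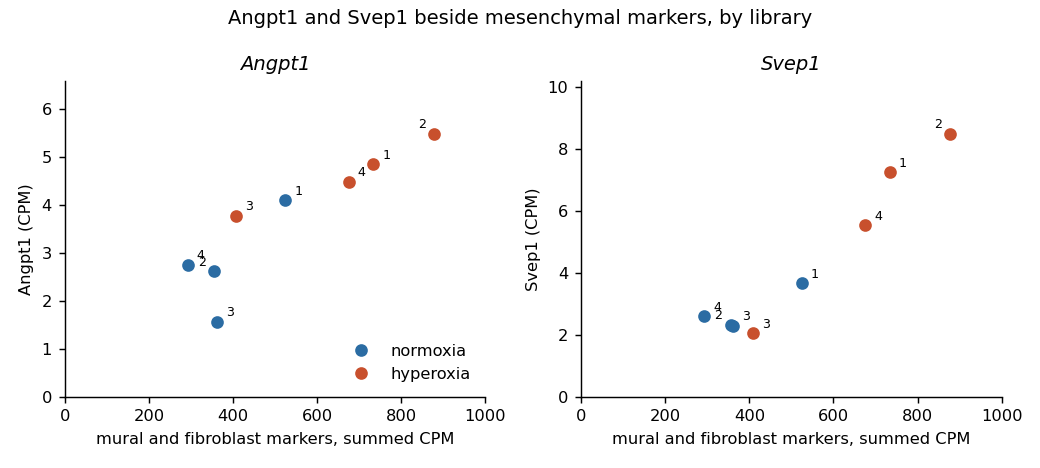
CPM of Angpt1 and Svep1 in each library against the summed CPM of mural and fibroblast markers, with library numbers beside the points. Normoxia 1, at 525 CPM of markers, is the highest of its group, and hyperoxia 3, at 408 CPM, the lowest of its own, on both axes.

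Levels of different genes were compared per length, in FPKM (fragments per kilobase of transcript and library size). In normoxia the order was Tie1 at 358 ± 6.38, Ptprb at 275 ± 32.6, Tek at 249 ± 13.9, Esm1 at 28.3 ± 5.91, Angpt2 at 7.09 ± 0.423, Angpt1 at 0.526 ± 0.199 and Svep1 at 0.168 ± 0.0403 FPKM (SD, n = 4). Among 22046 protein-coding genes Tie1 held rank 75, Ptprb rank 121 and Tek rank 154 by mean FPKM over all libraries, while Angpt1 held rank 11495 and Svep1 rank 12899. Of all neighbours in this order only Ptprb and Tek overlapped, in normoxia (238 to 305 and 230 to 259 FPKM) but not in hyperoxia (160 to 211 and 132 to 158 FPKM). In hyperoxia the means were 317 ± 2.83 FPKM for Tie1, 186 ± 21.0 for Ptprb, 144 ± 10.9 for Tek, 17.1 ± 1.86 for Esm1, 10.4 ± 0.743 for Angpt2, 0.889 ± 0.137 for Angpt1 and 0.360 ± 0.172 for Svep1, and the order was the same.

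Because the transcripts of Tie1, Tek and Ptprb fell by unequal amounts, ratios between these transcripts shifted, though not all without overlap. The FPKM ratio of Tie1 to Tek was 1.44 ± 0.0641 in normoxia (1.40 to 1.54) and 2.21 ± 0.147 in hyperoxia (2.02 to 2.37), without overlap. The ratio of Ptprb to Tie1 went from 0.766 ± 0.0780 to 0.586 ± 0.0633, also without overlap. Ptprb to Tek was 1.10 ± 0.0762 against 1.29 ± 0.102, where the groups overlapped, since hyperoxia 1 (1.15) lay under normoxia 2 (1.18). Angpt2 to Angpt1 was 15.2 ± 6.50 against 12.0 ± 2.73, with ranges of 9.03 to 24.3 and 9.03 to 15.5, so the groups overlapped. The ratio of Angpt2 to Esm1 went from 0.260 ± 0.0663 to 0.612 ± 0.0762. It could not overlap, since Angpt2 was higher and Esm1 lower in every hyperoxic library, so it adds nothing to those results. The ratios of Ptprb to Tie1 and of Angpt2 to Esm1 were not among those planned at first. The ratios were not tested.

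**Figure D4:**
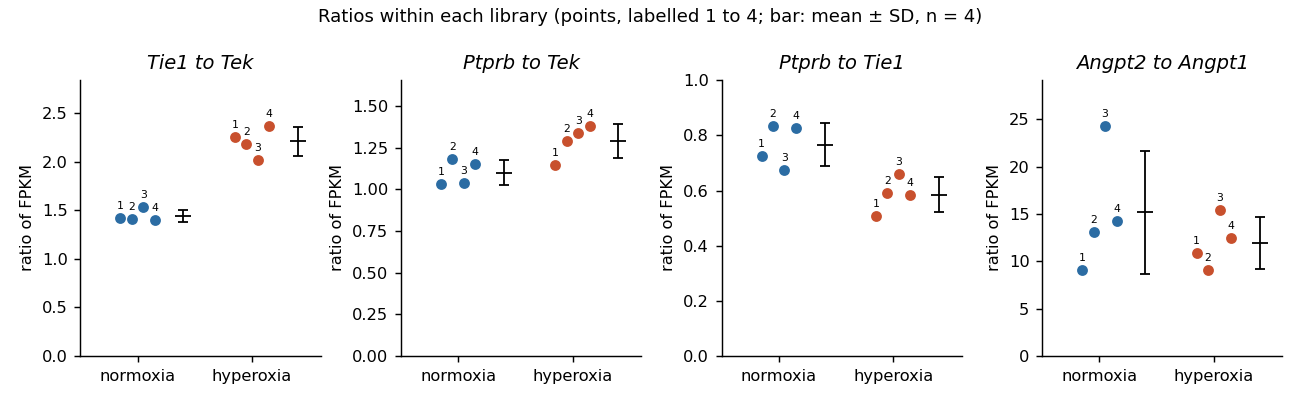
FPKM ratios of 4 gene pairs of the system in each library, by group; points are libraries, labelled by replicate number, and the bar is the mean ± SD of the 4. Tie1 to Tek and Ptprb to Tie1 separate the groups, and Ptprb to Tek and Angpt2 to Angpt1 overlap.

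Other genes of the pathway were read from lists described by their counts, with no set test. Of 20 partners and effectors of the Tie receptors, such as integrins, adaptors and kinases, 7 rose, 6 fell and 7 did not pass the test, with a median log2 fold change of 0.03. This is 65% of the list called, against 35.6% of all genes. When libraries were scaled to pan-endothelial counts, which moved the median of all genes to -0.11, the split was 5 higher and 9 lower and the list's median -0.08. The most abundant was Cdh5, VE-cadherin of the endothelial junction, at 4121 ± 175 and 4035 ± 140 CPM (log2 fold change -0.03, edgeR adjusted p = 0.658, n = 4 each), but it was called lower with pan-endothelial scaling (-0.14, adjusted p = 0.0116). Cdh5 is itself among the markers that set this scaling, so that call is not independent of it. Itgb1, the integrin beta-1 subunit, rose from 1616 ± 57.2 to 2000 ± 69.2 CPM (0.31, adjusted p = 0.000471), and Kdr, the VEGF receptor, from 1956 ± 64.8 to 2222 ± 50.9 CPM (0.18, adjusted p = 0.00705, but 0.204 with pan-endothelial scaling). Itgb3, another integrin subunit, rose from 12.6 ± 1.21 to 22.6 ± 1.59 CPM (0.85, adjusted p = 4.91e-05). Grb7, an adaptor that binds Tek, rose from 0.722 ± 0.242 to 1.68 ± 0.393 CPM (1.22, adjusted p = 0.00848). Foxo1 itself fell from 122 ± 14.7 to 93.0 ± 4.95 CPM (-0.39, adjusted p = 0.00304).

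Foxo1 is held back by Tek and Akt, and its known targets formed the next list. Of 20 FOXO target genes 2 rose, 10 fell and 8 did not pass the test, with a median log2 fold change of -0.39. This is 60% of the list called, against 35.6% of all tested genes. Bcl2l11, which encodes the pro-apoptotic protein Bim, fell from 90.2 ± 12.4 to 41.8 ± 2.69 CPM (-1.11, edgeR adjusted p = 8.75e-06, n = 4 each). Txnip, an inhibitor of thioredoxin, fell from 599.6 ± 48.8 to 321 ± 28.4 CPM (-0.90, adjusted p = 9.19e-06). The transcription factor genes Bcl6 and Klf6 rose, Bcl6 from 4.99 ± 1.06 to 12.3 ± 3.07 CPM (1.30, adjusted p = 0.000565) and Klf6 from 250.1 ± 41.6 to 335 ± 23.4 CPM (0.42, adjusted p = 0.00833). The insulin receptor gene Insr had a log2 fold change of 0.10 (adjusted p = 0.360).

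Esm1 belongs to the tip cell programme, and 14 other genes of that programme were counted apart from it. Of these, 9 rose, 1 fell and 4 did not pass the test, with a median log2 fold change of 0.33. This is 71.4% of the list called, against 35.6% of all tested genes. With pan-endothelial scaling the split was 7 higher and 2 lower and the median 0.23. Apln, which encodes the secreted peptide apelin and is also a marker of aerocyte capillary ECs, rose from 323 ± 47.9 to 920.3 ± 75.9 CPM (1.51, edgeR adjusted p = 2.31e-06, n = 4 each). The growth factor genes Pgf and Pdgfb rose as well, Pgf from 0.653 ± 0.432 to 2.28 ± 0.647 CPM (1.80, adjusted p = 0.00821) and Pdgfb from 434 ± 40.5 to 546 ± 19.9 CPM (0.33, adjusted p = 0.00262). Cxcr4, the chemokine receptor gene, was the only member of this list called lower in the main fit. It fell from 92.4 ± 5.13 to 40.5 ± 8.13 CPM (-1.19, adjusted p = 2.43e-05). Mcam, an adhesion molecule gene, rose from 1187 ± 80.8 to 1389 ± 116 CPM (0.23, adjusted p = 0.0266), a call lost at 0.0611 and 0.0669 without normoxia 1 and 3, and at 0.0770 and 0.0665 without hyperoxia 2 and 3. The Mcam call was also lost with pan-endothelial scaling (0.12, adjusted p = 0.136), with a replicate block (adjusted p = 0.0558) and in limma on log2(FPKM + 0.1) and log2(FPKM + 1) (adjusted p = 0.0593 and 0.0643).

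Of 8 genes related to the angiopoietins by sequence, 4 passed the filter, of which 2 were called higher and none lower, with a median log2 fold change of 0.60. This is 50% of those tested, against 35.6% of all tested genes called and 18.5% called higher. Angptl2, a secreted protein gene, rose from 11.5 ± 1.61 to 18.9 ± 3.55 CPM (0.72, edgeR adjusted p = 0.00261, n = 4 each). Angptl4, an inhibitor of lipoprotein lipase, went from 5.47 ± 1.36 to 8.92 ± 2.76 CPM (0.71, adjusted p = 0.0490). Without normoxia 2, 3 or 4 its adjusted p was 0.120, 0.0569 or 0.127, and without hyperoxia 1, 2 or 4 it was 0.0978, 0.139 or 0.0958. Angptl8 had a log2 fold change of 0.50 (adjusted p = 0.322), which was 0.99 (adjusted p = 0.0270) without normoxia 2 and 0.27 (adjusted p = 0.575) without normoxia 3.

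**Figure D5:**
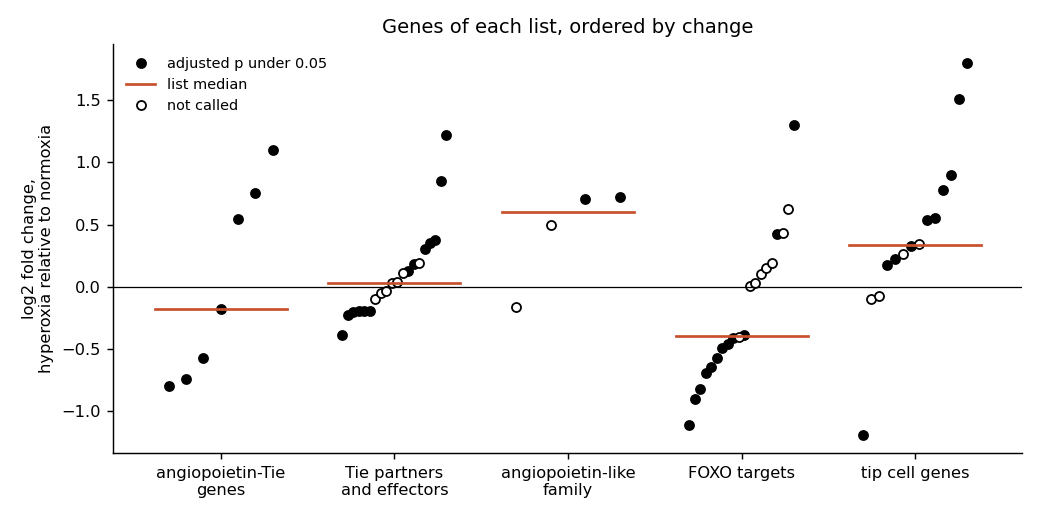
Log2 fold change (hyperoxia minus normoxia) of every tested gene of the angiopoietin-Tie system and the 4 pathway lists; filled points passed an adjusted p of 0.05, open points did not, and the line is the median of the list. Among FOXO targets 10 of 20 were called lower, against 17.1% of all tested genes. Among tip cell genes 9 of 14 were called higher, against 18.5% of all tested genes.

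Markers of the cells in the isolate were read beside these results. For comparison, 18.5% of all tested genes were called higher and 17.1% lower. All 12 pan-endothelial markers were detected (5 higher, 1 lower), and their sum, led by Cdh5, was 13789 to 14691 CPM in normoxia and 14568 to 15555 CPM in hyperoxia. The general capillary markers, led by Cxcl12, fell for 6 of 6 (2893 to 3281 against 1658 to 1917 CPM). The aerocyte markers, led by Apln, rose for 6 of 6 (1035 to 1434 against 2293 to 2737 CPM). Of the arterial markers, led by Efnb2, 3 of 6 fell (2428 to 2889 against 1750.1 to 1932 CPM), and of the venous ones 3 of 5 rose, not counting Vwf, the most abundant, which did not pass the test (2406 to 3064 against 2565 to 3453 CPM). Lymphatic markers, led by Lyve1, rose for 5 of 6 (971 to 1075 against 1570.2 to 1805 CPM). Of their mean sums of 1007 CPM in normoxia and 1691 CPM in hyperoxia, Lyve1 alone made up 954 and 1602 CPM. Outside the endothelium, 7 of 10 mural markers, led by Rgs5, rose (48.5 to 85.0 against 105 to 184 CPM), and 5 of 9 fibroblast markers rose and 1 fell, while Mfap4, the most abundant, did not pass the test (244 to 439.9 against 303 to 694 CPM). Alveolar type 2 markers, led by Sftpc, rose for 6 of 6 (229 to 321 against 736 to 2225 CPM), and alveolar type 1 markers, led by Ager, for 5 of 5 (71.4 to 85.8 against 141 to 394 CPM). For leukocytes, led by Lyz2, the sums were 159.9 to 333 and 208 to 507 CPM (1 higher and 1 lower of 7). For platelets, led by Itga2b, they were 18.3 to 24.3 and 21.8 to 33.8 CPM (1 of 4 higher), and for mesothelium, led by Msln, 0.0552 to 0.735 and 0.859 to 1.998 CPM (1 of 1 higher). No marker was at 0 in every library.

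The alveolar type 2 score did not overlap between the groups (-1.60 to -1.04 against 0.29 to 1.77), so it and the oxygen level cannot be told apart. With it as a covariate in edgeR, 0 of the 7 genes were called (3 had an unadjusted p under 0.05), and 165 of all genes were. The other tools, run without a covariate, called all 7 in DESeq2 and 6 of 7 in limma-voom, which left out Svep1. Over all genes, DESeq2 called 5522 and limma-voom 5513, on the same counts as edgeR. The log2 fold change with this score in the fit was -0.48 for Tek, -0.14 for Tie1, -0.0047 for Ptprb, -0.63 for Esm1, 0.84 for Angpt2, -0.23 for Angpt1 and -2.44 for Svep1. The part of epithelial RNA in these results was not tested.

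Genes whose level went most closely with each of the 7 were named by Pearson's r of log2 CPM over the 8 libraries, among the 9077 protein-coding genes with a mean of 10 CPM or more. Since the libraries fall into 2 groups that differ for many genes, these values describe mainly the difference between groups. For Tek they were Rnf144a (r = 0.999), Tbc1d2b (0.998) and Rbm6 (0.997), and for Tie1 Slc22a5 (0.998), Abi3bp (0.997) and Dstyk (0.996). For Ptprb they were Zc3h13 (0.994), Brd1 (0.992) and Slc38a2 (0.992). Esm1 went with Slc2a13 (0.980), Lrch1 (0.975) and Taf3 (0.973), and Angpt2 with Efemp2 (0.984), Vopp1 (0.983) and Tppp (0.982). Closest to Angpt1 were Fam162a (0.962), Mrpl37 (0.955) and Slc25a36 (0.951). Among the genes closest to Svep1 were Lpcat1 (0.963) and Col1a2 (0.959), the latter a collagen gene on the fibroblast list.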

How the data were processed

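Lung ECs of WT pups (4 normoxia and 4 hyperoxia libraries, grouped by sample titles) were profiled by RNA-seq. The authors deposited whole-number counts and FPKM values per gene for 54532 genes; the submitters' processing notes name HISAT2 2.0.5, featureCounts 1.5.0-p3 and mm10. Strand use and treatment of multiply mapped reads were not given in the sources used here. Of the genes, 24250 had no count. Counts were tested with edgeR 4.0.16 (R 4.3.3; quasi-likelihood, TMM, filterByExpr, group as the only term) on 15564 genes with Benjamini-Hochberg adjustment, called under 0.05. DESeq2 1.42.0, limma 3.58.1 (voom, and log2(FPKM + 0.1) or log2(FPKM + 1) at a mean FPKM of at least 0.1), other scalings and filters, a replicate block, marker score covariates and leaving out each library were alternatives. CPM uses TMM-normalised totals. Coordinates are those of the deposited tables and equal GENCODE M21 (GRCm38) for the 7 genes. The scripts were tested on simulated data. Replicates of a group differed beyond counting noise (chi-square per degree of freedom 5.09 to 18.4).

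The 7 genes and all lists were chosen with earlier results of these data known. Besides the 7, the text names, of each pathway list, the 3 tested genes with the highest CPM and the 3 with the largest absolute log2 fold change among those called, the most abundant marker of each cell type, and the 3 genes most like each of the 7, except for items not reported here.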

Additional observations from a re-analysis of the deposited data

Results flagged for a closer look

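Among 60 groups of 4 libraries looked at, 1 held a library that stood apart from the rest by Dixon's criterion, where chance gives about 3. It was the summed level of alveolar type 1 markers in hyperoxia, where hyperoxia 3 had 141 CPM and the other 3 libraries lay between 354 and 394 CPM; the gap took 0.840 of the group's range. The same library had the lowest hyperoxic levels of Angpt1 and Svep1 and the highest of Angpt2, Tek and Ptprb.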

How the results depend on the processing

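Under 20 alternatives each, Angpt2 and Tek kept their call in 19, and Tie1, Ptprb and Esm1 in 18, all with the same direction. Angpt1 and Svep1 kept theirs in 9. Angpt1 was not called with pan-endothelial scaling (log2 fold change 0.65), with limma on log2(FPKM + 0.1) (0.71) or log2(FPKM + 1) (0.31), and Svep1 not with limma-voom (0.95) or on those FPKM scales (0.70 and 0.21). With the mural and fibroblast score the values were 0.11 for Angpt1, -0.36 for Svep1, -0.16 for Tie1, -0.40 for Ptprb and -0.43 for Esm1. With the alveolar type 2 score they were -0.23 for Angpt1, 0.84 for Angpt2, -0.48 for Tek, -0.14 for Tie1, -0.0047 for Ptprb, -2.44 for Svep1 and -0.63 for Esm1; this score separates the groups. Leaving out 1 library gave 0.56 to 1.003 for Angpt1 and 0.87 to 1.38 for Svep1.

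Of the 7 genes, 2 were called with the mural and fibroblast score and 0 with the alveolar type 2 score (3 at an unadjusted p under 0.05, edgeR). For Tie partners and effectors the counts were 1 and 0 in place of 13 (8 and 1 unadjusted), for tip cell genes 4 and 0 in place of 10 (9 and 7 unadjusted), for FOXO targets 8 and 0 in place of 12 (12 and 9 unadjusted), and for all genes 1600 and 165 in place of 5535. Angiopoietin-like genes called went from 2 to 1 with the library total only, pan-endothelial scaling, limma-voom, both FPKM scales and the replicate block, to 0 with either score (0 and 1 unadjusted), and to between 1 and 2 when a library was left out. Beyond the 7 genes, 6 values changed sign: Angptl4 to -0.25 and -1.50 with the mural and fibroblast and the alveolar type 2 score, Angptl2 to -0.046 with the latter, Insr to -0.0072 with pan-endothelial scaling, and Cdh5 to 0.029 and 0.12 with the 2 scores. Of the other values of these 19 genes, 328 stayed on their side of the threshold, 44 lost a call and 2 gained one (Cdh5 with pan-endothelial scaling, Angptl8 without normoxia 2), all in the same direction. Levels moved by less than 1 SD with TMM-normalised RPKM in place of FPKM. The cause was not tested. Pan-endothelial scaling moved the share of calls that were higher from 51.9% to 31.7%.

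Little sign was seen that replicate numbers pair the samples: deviations of same-numbered libraries correlated at 0.119, 0.0361, -0.125 and -0.140. These values cannot settle whether same-numbered libraries were paired. With the replicate block 4792 of all genes were called in place of 5535, all 7 genes of the system among them. Angpt1 and Svep1 had 28 to 150 reads a library, which limits their precision; their spread between libraries reached a coefficient of variation of 37.7% for Angpt1 in normoxia and 47.8% for Svep1 in hyperoxia.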
